A study of Mus musculus with 6 samples.

Results

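The transcripts described here are those of p53 itself (gene Trp53) and of 9 genes known to be switched on by it, Cdkn1a, Mdm2, Ccng1, Eda2r, Phlda3, Zmat3, Trp53inp1, Aen and Sesn1. They were chosen by gene symbol, and all 10 were found among the 17971 genes measured by RNA-seq in dorsal root ganglia, the clusters of sensory neurons and glia beside the spinal cord, of male E13.5 mouse embryos. The 3 cKO libraries were made from Wnt1-cre+/-;Ybx1fl/fl embryos, which carried floxed Ybx1, the gene of an mRNA-binding cold-shock domain protein, on both chromosomes and a Cre recombinase driven by Wnt1, active in the neural crest, from which neurons and glia of the ganglia arise. The 3 Ctrl libraries were made from Ybx1fl/fl littermates without Cre, so all embryos carried the floxed alleles, and an effect of Cre or its transgene cannot be told apart from the loss of Ybx1. The sources used here do not say whether a library held the ganglia of 1 embryo or of several, and p-values measure only the spread between these samples.

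The p53 protein is a transcription factor that is held at a low level by Mdm2, a ubiquitin ligase that marks it for breakdown. Signals such as DNA damage, or free ribosomal proteins that bind Mdm2, stabilise p53, which then binds DNA as a tetramer at paired half-sites and raises genes that halt the cell cycle, repair DNA or start cell death. Mdm2 is itself a target, which closes a feedback loop. In the developing nervous system, p53 is known to act when neural crest cells or progenitors are damaged. Because p53 is controlled mostly as a protein, the transcripts of its targets are commonly used as a readout of its activity.

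DNA letters close to the transcription starts show which members carry an exact match to the p53 half-site there. A half-site with any letter off the consensus was not counted. RefSeq promoter windows in GRCm38.p6, from 250 bases before to 50 after a start, were at hand for 8 of the 10 members (11 windows), and not for Zmat3 and Trp53inp1. The p53 half-site consensus (purines, then C, A or T letters, G and pyrimidines, which reads the same on both strands) was found for 6 of these 8 genes, against 9.55% of all 27025 genes, and in 7 of their 11 windows, against 8.36% of all 32851 windows. The windows of Aen overlap and hold the same half-site, which counts in each. Because the members are p53 and its known targets, these shares do not test the motif. The lines below give the half-site in capitals with the bases around it, 5′ to 3′ on the strand of the gene. Trp53, Ccng1 and Aen are shown as the members whose groups did not overlap, Mdm2 and Cdkn1a as the classical feedback and arrest targets.
Trp53, chr11:69580274-69580303, plus strand: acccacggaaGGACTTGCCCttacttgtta
Ccng1, chr11:40755452-40755481, minus strand: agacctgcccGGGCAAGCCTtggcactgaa
Aen, chr7:78895927-78895956, plus strand: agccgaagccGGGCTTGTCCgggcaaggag
Mdm2, chr10:117710925-117710954, minus strand: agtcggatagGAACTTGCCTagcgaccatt
Cdkn1a, chr17:29090886-29090975, plus strand: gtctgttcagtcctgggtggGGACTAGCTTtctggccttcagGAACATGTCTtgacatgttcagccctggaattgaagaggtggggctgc

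Cdkn1a was the only member whose window held 2 exact half-sites within 13 bases of each other, here 12 bases apart. This arrangement was found in 0.0731% of all windows. Inexact half-sites were not searched, but the printed lower-case bases hold some, and other members may hold pairs that include them. Directly after GAACATGTCT of Cdkn1a, the bases tgacatgttc match the consensus except for the leading t. Directly before GGGCAAGCCT of Ccng1, the bases agacctgccc match it except for a c in place of A or T. Both genes thus hold an inexact pair without a gap, and the exact pair is not the only possible pairing in Cdkn1a. The Cdkn1a pair lies before the first of 2 listed starts. That start is 2790 bases ahead of the second, whose own window held no exact half-site. In the windows of Phlda3 and Eda2r no exact half-site was found. A match of letters is a description and does not show that p53 binds there.

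The libraries held 16464264 to 17446385 counts. Ybx1, the targeted gene, stood at 809 to 927 CPM (counts scaled by TMM to a common library size) in Ctrl and at 108 to 137 in cKO (log2 fold change -2.80, edgeR adjusted p 8.42e-08), so every library matched its label. Markers of sensory neurons (10 of 10 tested, summed 9061 to 9710 CPM in Ctrl and 8974 to 9147 in cKO) and of Schwann and satellite glia (8 of 8 tested, 2066 to 2223 and 2160 to 2337 CPM) were abundant, as the tissue label has it. Spinal cord markers were low (6 genes, summed 1.67 to 2.14 CPM in Ctrl and 2.71 to 4.84 in cKO), and 1 of the 2 tested was called higher. The tissue markers leaned with genotype: 7 of 10 neuron markers had negative log2 fold changes (median -0.13), 7 of 8 glial markers positive ones (median 0.19) and 10 of 10 macrophage markers positive ones (median 0.41). Without both libraries numbered 1 these medians were -0.10, 0.16 and 0.18. None of these 3 lists had a called member without the block, while with it 4 neuron markers were lower and 3 glial and 1 macrophage marker higher. The library of cKO replicate 1 stood apart in blood and macrophage transcripts. Its 8 erythroid markers summed to 6602 CPM against 1704 to 2923 in the other 5 libraries, and its 10 macrophage markers to 183 against 107 to 128. All 8 erythroid markers had positive log2 fold changes (median 0.44), but 0 did without both libraries numbered 1 (median -0.21). None of the listed markers was at 0 in all libraries. In bulk tissue, fewer cells of a type and less RNA per cell cannot be told apart.

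No member passed the test for a difference between cKO and Ctrl ganglia. Of the 9 members with enough counts to test, 0 passed an edgeR adjusted p of 0.05, in a comparison that called 0.481% of 14338 genes, and DESeq2 and limma-voom also called 0. At an unadjusted p under 0.05 there were 2, Ccng1 and Trp53, while 10.7% of all genes reached it. The log2 fold changes ran from -0.17 to 0.16, with 6 positive and 3 negative and a median of 0.08, against a median of 0.00 and 51.4% positive over all genes. With the replicate number as a block, 0 members passed as well, although 5.33% of all genes did. In that model 4 had an unadjusted p under 0.05, against 18.7% of all genes. They were Trp53 (blocked 95% interval 0.04 to 0.26), Ccng1 (-0.28 to -0.06), Aen (-0.24 to -0.01) and Sesn1 (0.01 to 0.30). Their blocked edgeR adjusted p-values were 0.111, 0.0804, 0.242 and 0.224.

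Levels differed far more between the members than between the genotypes. By TPM, the deposited measure that adjusts for transcript length, Trp53 was the most abundant with a mean of 94.3 over the 6 libraries (86.5 to 105), followed by Ccng1 at 58.0 (51.9 to 63.6). Mdm2 at 39.4, Cdkn1a at 37.9 and Sesn1 at 34.5 TPM came next, each with a range that overlapped that of its neighbour. Phlda3 at 23.8 and Aen at 23.6 TPM could not be ordered either, and the range of Phlda3 (19.8 to 31.4) also reached that of Sesn1 (30.5 to 37.7). Trp53inp1 at 14.4, Zmat3 at 6.36 and Eda2r at 0.285 TPM stood below, with ranges that did not touch.

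**Figure D1:**
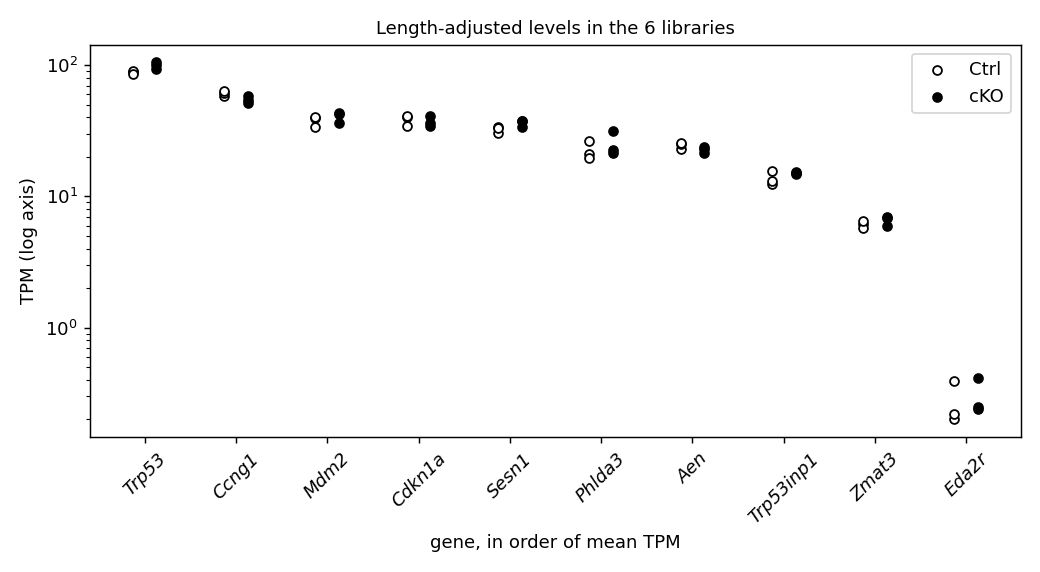
TPM of the 10 members (log axis) in the 3 Ctrl (open) and 3 cKO (filled) libraries, 1 point per library, in order of mean TPM. Trp53 lay at 86.5 to 105 TPM and Eda2r at 0.2 to 0.41, while Ctrl and cKO points of a gene lay close together.

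Trp53 (gene identifier 22059, chr11:69580348-69591873) encodes the transcription factor itself. Its level was 79.9, 75.4 and 72.6 CPM in Ctrl replicates 1, 2 and 3 and 86.2, 85.3 and 81.5 CPM in the cKO replicates. All 3 cKO libraries lay above all 3 Ctrl libraries, as was so for 7.83% of all genes. The same held in TPM, where the groups of 14.1% of all genes did not overlap in one direction or the other. The means of 76.0 ± 3.71 and 84.3 ± 2.50 CPM (SD, n = 3) gave a log2 fold change of 0.15 (95% interval 0.00 to 0.30, edgeR adjusted p 0.453). The interval excludes a fold above 1.23. GENCODE M21 lists a processed pseudogene, Trp53-ps, on chromosome 17, which is not a row of the table used here, so reads shared with it could be counted to Trp53.

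Mdm2 (17246, chr10:117688875-117710758), the ubiquitin ligase that keeps p53 low, had 57.5, 62.4 and 65.0 CPM in Ctrl and 62.7, 65.6 and 67.3 in cKO. The groups overlapped, while within each same-numbered pair the cKO library was higher, by 0.12, 0.07 and 0.05 on the log2 scale. The log2 fold change was 0.08 (95% interval -0.07 to 0.24, edgeR adjusted p 0.770), so the interval excludes a fold above 1.18. Trp53inp1 (60599, chr4:11156441-11174379), a nuclear protein that promotes p53 activity and autophagy, had 38.1, 36.9 and 44.7 CPM in Ctrl and 46.3, 42.2 and 42.7 in cKO. Its groups overlapped through Ctrl replicate 3, and its log2 fold change was 0.13 (95% interval -0.06 to 0.32, edgeR adjusted p 0.661).

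Among the cell-cycle members, Cdkn1a (12575, chr17:29090979-29100722) encodes p21, the inhibitor of cyclin-dependent kinases through which p53 halts the cycle. It had 33.6, 35.8 and 37.3 CPM in Ctrl and 33.9, 35.9 and 32.0 in cKO. The cKO libraries numbered 1 and 2 were within 0.01 log2 units of their Ctrl partners, and the pair numbered 3 differed by -0.22. The log2 fold change was -0.07 (95% interval -0.24 to 0.10, edgeR adjusted p 0.833), which bounds the fold between 0.85 and 1.07. Without both libraries numbered 3 it was 0.01. In GENCODE M21, 273 of the 3553 exon bases of Cdkn1a overlap a gene on the opposite strand that is not a row of the table used here, and the sources used here do not say whether counting used strand.

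Ccng1 (12450, chr11:40748552-40755309) encodes cyclin G1, a p53 target that binds regulatory subunits of the phosphatase PP2A. Its levels were 112, 108 and 113 CPM in Ctrl and 101, 101 and 95.1 in cKO. All cKO libraries were below all Ctrl libraries, as for 8.77% of all genes, in TPM too. The means were 111 ± 2.79 and 98.8 ± 3.25 CPM (SD, n = 3). Its log2 fold change of -0.17 was the lowest of the members (95% interval -0.31 to -0.03), with an edgeR adjusted p of 0.360. In the blocked model without both libraries numbered 1 the adjusted p was 0.0423 (log2 fold change -0.18), the only setting in which a member passed; that model called 8.72% of all genes.

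Members tied to cell death did not share a direction. Aen (68048, chr7:78895927-78911209), an apoptosis-enhancing nuclease, had 63.0, 64.8 and 65.6 CPM in Ctrl and 60.4, 59.5 and 57.8 in cKO. Its groups did not overlap in CPM but did in TPM, and the log2 fold change was -0.12 (95% interval -0.26 to 0.02, edgeR adjusted p 0.550). Phlda3 (27280, chr1:135766085-135769134), a pleckstrin-homology protein that restrains the kinase Akt, stood at 26.3, 21.1 and 19.8 TPM in Ctrl and 31.4, 22.4 and 21.6 in cKO. Both libraries numbered 1 were above the other 4. The log2 fold change of 0.16 had the widest interval of the members (-0.26 to 0.58, edgeR adjusted p 0.843), which narrowed to -0.03 to 0.34 with the replicate block. Without cKO replicate 1, the library high in erythroid and macrophage markers, the value turned to -0.10, and without both libraries numbered 1 it was 0.07; the part of those cells in it was not tested. Eda2r (245527, chrX:97333837-97377234), a receptor of the tumour necrosis factor family, was too low to test: its counts were 8, 12 and 9 in Ctrl against 14, 8 and 9 in cKO.

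Sesn1 (140742, chr10:41810574-41908436) encodes a sestrin, which restrains the growth kinase complex mTORC1. It had 44.6, 46.4 and 45.3 CPM in Ctrl and 56.6, 49.7 and 45.7 in cKO. The Ctrl libraries were close together, and the cKO libraries spread upward from the same level, with cKO replicate 1 the highest. The log2 fold change was 0.16 (95% interval -0.03 to 0.34, edgeR adjusted p 0.561); without cKO replicate 1 it was 0.07 and without both libraries numbered 1 it was 0.06. Zmat3 (22401, chr3:32334792-32365665), an RNA-binding zinc finger protein, had 27.8, 23.9 and 27.1 CPM in Ctrl and 27.0, 27.9 and 28.6 in cKO. Its groups overlapped, and its log2 fold change was 0.08 (95% interval -0.10 to 0.26, edgeR adjusted p 0.812).

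**Figure D2:**
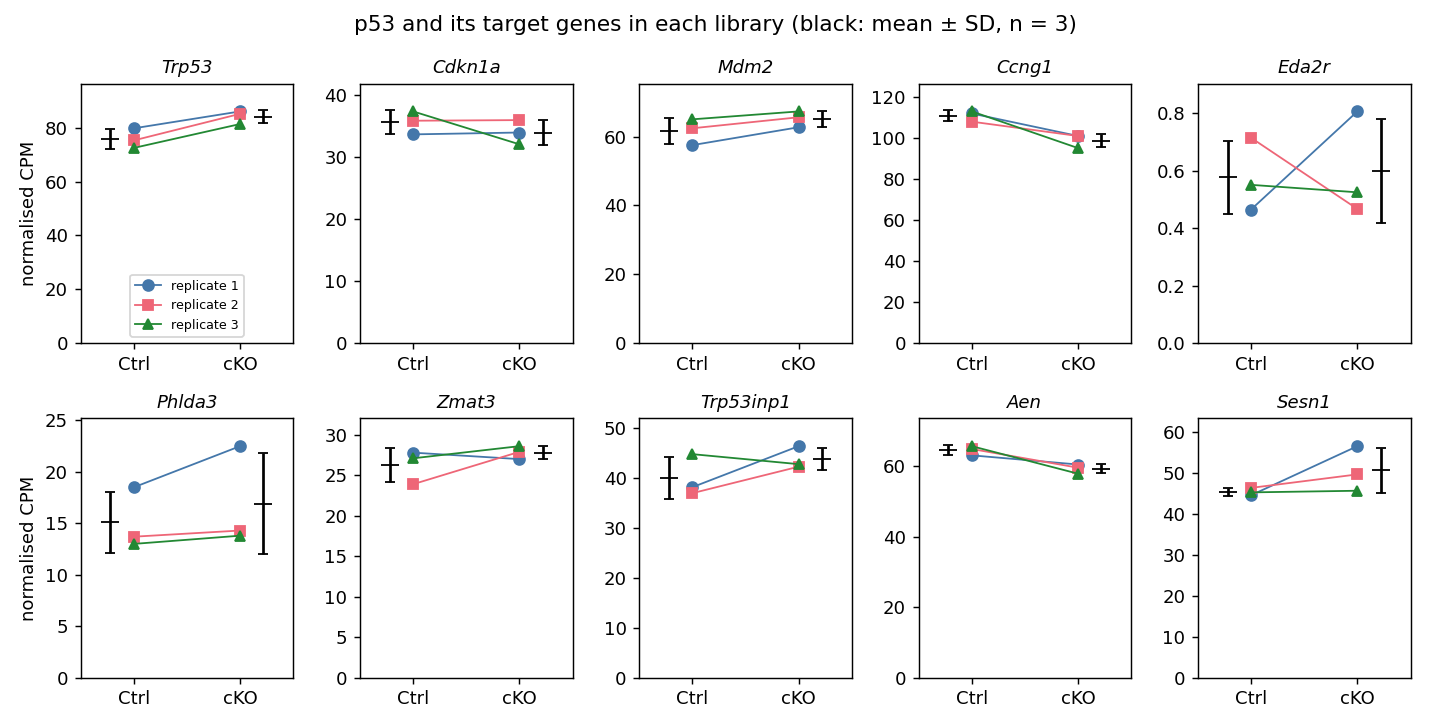
Normalised CPM of each member in Ctrl and cKO, with lines joining libraries of the same replicate number and black bars for the mean ± SD (n = 3). In Trp53 all cKO points lay above all Ctrl points (81.5 to 86.2 against 72.6 to 79.9 CPM), in Ccng1 and Aen all lay below, and in Phlda3 both libraries numbered 1 stood above the rest.

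Across the members, 6 of 9 moved the same way in all 3 same-numbered pairs, a pattern seen in 39.9% of all genes: Trp53, Mdm2, Phlda3 and Sesn1 were higher and Ccng1 and Aen lower. Groups did not overlap for 3 of 9 members, against 16.6% of all genes. By size alone, the log2 fold change of Ccng1 exceeded that of 75.8% of genes tested, that of Trp53 72.0% and that of Cdkn1a 42.4%. Without the replicate block, the upper bounds of the intervals allow a rise of at most 1.27-fold for the tested members other than Phlda3, and of 1.49-fold for Phlda3. With the block these bounds were 1.23-fold and 1.27-fold.

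**Figure D3:**
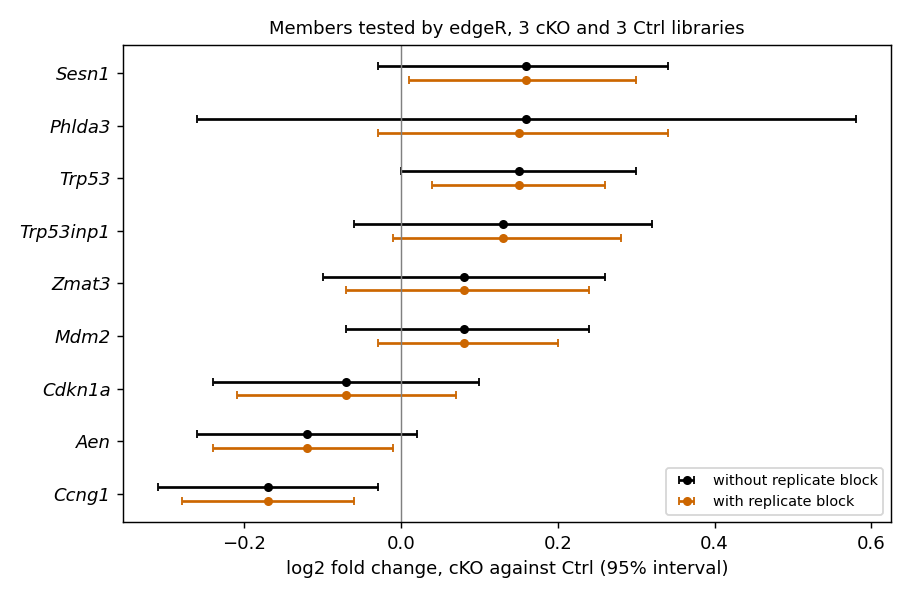
Log2 fold change of the 9 tested members (cKO against Ctrl) with 95% intervals, without (black) and with (orange) the replicate number as a block. Estimates ran from -0.17 for Ccng1 to 0.16 for Sesn1 and Phlda3, and no member passed the adjusted threshold in either model.

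The TPM of the targets was also set against that of Trp53 within each library, a ratio that does not depend on library scaling. In this ratio Ccng1 and Aen lay lower in cKO and Mdm2 did not separate. For Ccng1 this was fixed beforehand, since in TPM every cKO library lay above every Ctrl library for Trp53 and below for Ccng1. The ratio of Aen shares the same higher Trp53 value. These ratios are therefore a description and no further test of the targets. The TPM ratio of Ccng1 to Trp53 was 0.657, 0.673 and 0.736 in Ctrl and 0.550, 0.552 and 0.546 in cKO. That of Aen was 0.256, 0.279 and 0.295 in Ctrl and 0.228, 0.226 and 0.229 in cKO. For Mdm2 the ratios overlapped, with 0.380, 0.438 and 0.469 in Ctrl and 0.383, 0.406 and 0.430 in cKO. Of the 8 targets other than Eda2r, 3 (Ccng1, Aen and Cdkn1a) had non-overlapping ratios, all lower in cKO, that of Cdkn1a only by a margin below the digits given (lowest Ctrl and highest cKO ratio both 0.389). Over all genes 30.8% had such lower ratios, since every ratio shares the higher Trp53 value in cKO, so the count of 3 of 8 lies near the background.

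Other genes of the pathway gave few differences. Of 90 further genes in 5 lists, 88 were in the table and 84 were tested, and edgeR, DESeq2 and limma-voom each called 0. At an unadjusted edgeR p under 0.05 there were 6, while 10.7% of all genes reached it. With the replicate block 18 of the 84 had an unadjusted edgeR p under 0.05, against 18.7% of all genes. The counts per list below stand against the same shares. In the blocked model 4 of the 84 passed, all lower in cKO, a share near the 3.56% of all genes called lower. All 4 lay in 2 of the target lists, described next. They stood beside lower sensory neuron markers and higher glial markers in the same model, whose part in these calls was not tested.

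The list of p53 regulators held upstream kinases, ubiquitin ligases and relatives of p53. Of 17 tested, 11 had positive log2 fold changes, the median was 0.02 and none passed with or without the block (1 and 3 at an unadjusted p under 0.05 without and with it). Rpl5 and Rpl11 encode ribosomal proteins that bind and inhibit Mdm2. Rpl5 had 610, 553 and 577 CPM in Ctrl and 573, 494 and 497 in cKO (log2 fold change -0.15, SE 0.08, edgeR adjusted p 0.569; 0.0557 with the block, and 0.0308 in the model without the block and without both libraries numbered 1). Rpl11 gave 0.07 on the log2 scale (SE 0.11, edgeR adjusted p 0.879). Cdkn2a, whose Arf product inhibits Mdm2, and the p53 relatives Trp63 and Trp73 were too low to test, with 0 to 3 counts in each library.

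Among 16 cell-cycle and DNA repair targets, 9 had positive and 7 negative log2 fold changes, with a median of 0.02. None passed without the block (2 at an unadjusted p under 0.05) and 2 passed as lower with it. Rprm encodes Reprimo, which holds cells in G2 phase. It had 266, 257 and 260 CPM in Ctrl and 230, 232 and 219 in cKO (log2 fold change -0.20, edgeR adjusted p 0.259, and 0.0187 with the block). Every cKO library lay below every Ctrl library, as for 8.77% of all genes. Plk2, which encodes a polo-like kinase, had 116, 115 and 111 CPM in Ctrl and 105, 97.9 and 95.9 in cKO (log2 fold change -0.19, edgeR adjusted p 0.290; 0.0366 with the block). In blocked models the call of Plk2 was lost with library totals (adjusted p 0.0681) and without both libraries numbered 2 or 3 (0.386 and 0.0737), and that of Rprm without both numbered 2 or 3 (0.141 and 0.051). Without the block, both genes passed once both libraries numbered 1 were left out (edgeR adjusted p 0.0206 for Plk2 and 0.0303 for Rprm). With the block and the same libraries left out, the values were 0.00601 and 0.00514.

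The 13 tested apoptosis targets had a median log2 fold change of 0.02, with 7 positive, and none passed with or without the block (0 and 1 at an unadjusted p under 0.05). Their most abundant genes were Trp53i11 (log2 fold change 0.05) and Ei24 (0.02). Trp53i11 passed as higher in the blocked model without both libraries numbered 1 (0.18, edgeR adjusted p 0.0114). Bax, a pore-forming protein of the mitochondrial death pathway, had 61.2, 56.1 and 54.7 CPM in Ctrl and 63.8, 56.8 and 57.3 in cKO (log2 fold change 0.05, 95% interval -0.12 to 0.21). Bbc3, which encodes Puma, had 21.1, 20.2 and 22.7 CPM in Ctrl and 21.7, 20.7 and 21.5 in cKO. In CPM the groups overlapped for both genes, while in TPM those of Bax did not (169 to 177 in Ctrl and 181 to 184 in cKO). The TPM groups of 14.1% of all genes did not overlap in one direction or the other. The counts of Pmaip1, which encodes Noxa, were 5, 11 and 3 in Ctrl against 14, 8 and 13 in cKO, too few for a narrow estimate (log2 fold change 0.83, 95% interval -0.17 to 1.84, edgeR adjusted p 0.580).

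Among 18 tested metabolic and other targets, 9 log2 fold changes were positive and 9 negative. None passed without the block (3 at an unadjusted p under 0.05) and 2 passed as lower with it. Trp53inp2, a paralog of Trp53inp1 that acts in autophagy, had 254, 259 and 236 CPM in Ctrl and 207, 213 and 228 in cKO (log2 fold change -0.21, edgeR adjusted p 0.278; 0.0314 with the block). Ak1, an adenylate kinase, had 27.0, 27.3 and 25.3 CPM in Ctrl and 21.2, 23.2 and 21.4 in cKO (log2 fold change -0.28, edgeR adjusted p 0.195; 0.0310 with the block). Both genes had every cKO library below every Ctrl library, as for 8.77% of all genes. In blocked models the call of Trp53inp2 was lost with library totals (adjusted p 0.052) and without both libraries numbered 2 (0.374), and that of Ak1 without both numbered 1 or 2 (0.0696 and 0.149). The call of Trp53inp2 was kept without both numbered 1 or 3 (blocked edgeR adjusted p 0.0232 and 0.000948). That of Ak1 was kept without both numbered 3 (0.0434). In the blocked model without both libraries numbered 3, the glutathione peroxidase gene Gpx1 (log2 fold change 0.21, edgeR adjusted p 0.0289) and the lipid transfer protein gene Pltp (0.28, 0.0165) passed as higher; the naming of both followed a look at their values.

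The last list held cell-cycle genes that p21 and the DREAM repressor complex are known to shut down when p53 is active. Of 20 tested, 17 were positive on the log2 scale and the median was 0.10, against 51.4% positive and a median of 0.00 over all genes. None passed with or without the block, with 0 and 2 at an unadjusted p under 0.05. Without both libraries numbered 1, 16 were positive and the median was again 0.10. The summed level was 734, 674 and 731 CPM in Ctrl and 778, 714 and 766 in cKO, higher in cKO in each same-numbered pair but overlapping between groups. Glial and macrophage markers were also mostly positive, and their part in this was not tested. The most abundant were Mki67 (log2 fold change 0.07, SE 0.07), the gene of the proliferation marker Ki-67, and Top2a (0.06, SE 0.07), a topoisomerase.

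**Figure D4:**
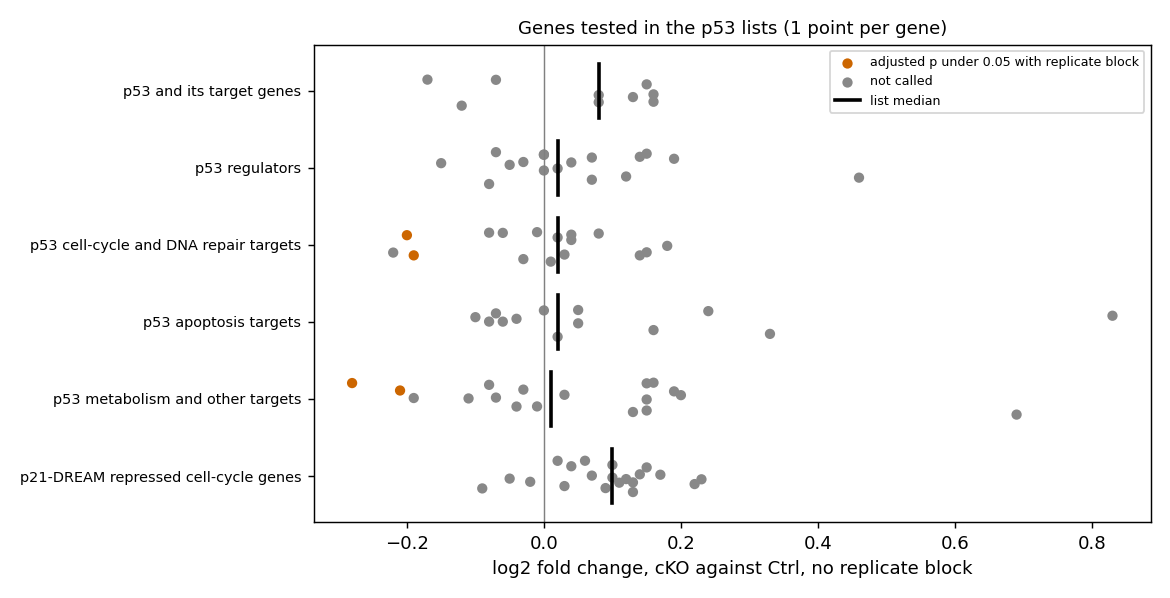
Log2 fold change (cKO against Ctrl, without the block) of each tested gene of the members and the 5 further lists, with black lines at the list medians. Orange points are the 4 genes called with the replicate block, all at negative values, and medians ran from 0.01 to 0.10.

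The mean profile of the 9 tested members, centred over the 6 libraries, was nearly flat: it ran from -0.059 in Ctrl replicate 2 to 0.098 in cKO replicate 1 on the log2 scale. This mean joins members that moved in opposite directions, so its flatness does not describe each member. In every same-numbered pair Trp53, Mdm2, Phlda3 and Sesn1 were higher in cKO and Ccng1 and Aen lower. The genes of at least 5 CPM closest to the mean profile were Xpnpep1, Tspan5 and Cog4, with root-mean-square differences of 0.0126, 0.0146 and 0.0156 log2 units over 6 libraries. Their own log2 fold changes were small (0.03, 0.07 and 0.02).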

How the data were processed

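Trizol-extracted total RNA was made into mRNA libraries, per the labels' protocols. The authors deposited estimated counts per gene, not normalized, and TPM values; the submitters' processing notes name HISAT2 2.2.1, Bowtie2 2.4.5 and RSEM 1.3.1 with GRCm38 (mm10), without role or order. The FPKM and mean columns were not used. Counts (88.4% to 88.6% whole per library) were rounded; filterByExpr kept 14338 genes. The test was edgeR 4.0.16's robust quasi-likelihood F test with TMM in R 4.3.3, two-sided, Benjamini-Hochberg adjusted over all genes at 0.05, after checks on simulated data. Those checks required no recovery of changes as small as those of the members. SEs and 95% intervals come from its F statistic. DESeq2 1.42.0 and limma 3.58.1 were alternatives. Coordinates and promoters are from RefSeq (GRCm38.p6). Across genes, libraries sharing a number deviated together from their groups (correlations 0.328, 0.205 and 0.184), and sample codes share their start within a number, so the numbers were taken to pair samples. Blocked models are given where they change a call, and for members with a blocked unadjusted edgeR p under 0.05 or a wide interval. Whether a number marks a litter is not stated. Members and lists were chosen with earlier results of these data known. Named list genes were those called in either model, or else the 2 most abundant, plus Rpl5, Rpl11, Bax, Bbc3 and Pmaip1; profile neighbours were the 3 closest genes of at least 5 CPM. Models without both libraries of a number and blocked models with other scalings were chosen after seeing the data. Figures were drawn with matplotlib 3.10.9.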

Additional observations from a re-analysis of the deposited data

How the results depend on the processing

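Of 207 alternative values of the 9 tested members, 203 kept both direction and side of the threshold. Exceptions were Cdkn1a at 0.01 without both libraries numbered 3 (with or without the replicate block), Phlda3 at -0.10 without cKO replicate 1 (-0.10 to 0.34 over the removals of 1 library), and Ccng1 at -0.18 (edgeR adjusted p 0.0423) with the block and without both libraries numbered 1; the cause was not tested. The replicate block alone changed no call of a member. The count of members called was 1 in that last model and 0 in every other count model run, leaving out each replicate included. The lowest adjusted p of any other member was 0.0528, for Trp53inp1 with the block and without both libraries numbered 3. The count over all genes moved from 69 to 44 with library totals, 184 with the DESeq2 test, 128 without a filter on low counts, and 764 with the replicate block; leaving out 1 replicate gave 18 to 104. Without both libraries numbered 1, 2 or 3 it was 731, 8 and 2, and with the block 1252, 260 and 836. The blocked count was 731 with DESeq2 size factors and 799 with library totals. Of the 84 pathway genes, 0 were called without the block, 4 with the replicate block, 4 and 2 with the block and DESeq2 size factors or library totals, 3 without both libraries numbered 1 (5 with the block), and 4 in the blocked model without both numbered 3. Library totals moved the median of all genes to 0.03. Models of log2(TPM + 1) and log2(TPM + 0.1) called no member. Counts of 8 to 14 kept Eda2r out of the tests.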
